A study of Rattus norvegicus with 2 samples.

Results

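The calcium/calmodulin-dependent protein kinases (CaM kinases) and the CaMKII inhibitor Camk2n1 were followed in the hypothalamus of female rats from before puberty to the first estrus. The 9 genes were taken by name: Camk2a (written CAMK2A in the files), Camk2b, Camk2d and Camk2g, which encode the subunits of CaMKII, Camk2n1, Camkk1, Camkk2, Camk1 and Camk4. All 9 were found, with 15 transcripts, among 22353 genes and 26324 transcripts of the mRNA table. The family was chosen by the FPKM of Camk2a in these libraries, which differed strongly between the stages, so the levels of the members are described and not tested. The rats were Sprague Dawley, with no genetic change or treatment. The prepubertal group was taken at postnatal day 25, and the pubertal group at postnatal day 35 in the first estrus, which was read from vaginal smears. The methods give 3 rats per stage, whereas the tables hold 1 column per stage. Each stage was therefore treated as 1 library, so the differences given here could not be checked against replicates, and age and stage cannot be told apart.

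CaM kinases read the rise in intracellular calcium that follows neuronal activity, by binding calmodulin once it carries calcium. CaMKII forms large holoenzymes of several subunits, phosphorylates itself, and is a major protein of the excitatory postsynapse. The alpha subunit, encoded by Camk2a, is typical of excitatory neurons of the forebrain, the beta subunit also anchors the enzyme to actin, and the gamma and delta subunits are found in many tissues. Camk2n1 encodes a small protein that binds and inhibits active CaMKII. The kinases Camkk1 and Camkk2 form an upstream step that activates CaMKI (Camk1) and CaMKIV (Camk4), and CaMKIV in turn phosphorylates the transcription factor CREB in the nucleus.

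Values are FPKM, fragment numbers scaled to transcript length and to the mapped fragments of a library, summed over the transcripts of a gene. Because FPKM is scaled to transcript length, it can be compared between genes. Multiplied by the effective length, the FPKM of genes with a single transcript came in whole multiples of 1 step in each library, which gave about 20800000 fragments before puberty and 16200000 at puberty. The fragments behind each member followed from this step, from 439 to 8984 before puberty and from 218 to 5655 at puberty. The 95% intervals given are exact and come from these numbers. They cover counting error only, and the spread between rats is not in them.

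The CaMKII subunit genes differed in level and in the size of the difference between the stages. Camk2a was at 59.6 FPKM (56.6 to 62.7) in the prepubertal and at 24.8 FPKM (22.7 to 27.2) in the pubertal library, which rested on 1484 and 485 fragments. It was thus 2.40-fold lower at puberty (2.16 to 2.66), a log2 ratio of -1.23 on FPKM + 1. Camk2b, the most abundant subunit gene in both libraries, went from 121 to 97.2 FPKM, 1.24-fold lower (1.20 to 1.28). Camk2d, from 54.7 to 46.8 FPKM, was 1.17-fold lower (1.12 to 1.22). Camk2g had 68.5 FPKM before puberty and 69.4 FPKM at puberty, a ratio of 1.01 (0.946 to 1.09), so no difference beyond counting error was seen. Camk2a thus had the lowest ratio of the 4 subunit genes, which is a description, since it was chosen for this difference.

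**Figure D1:**
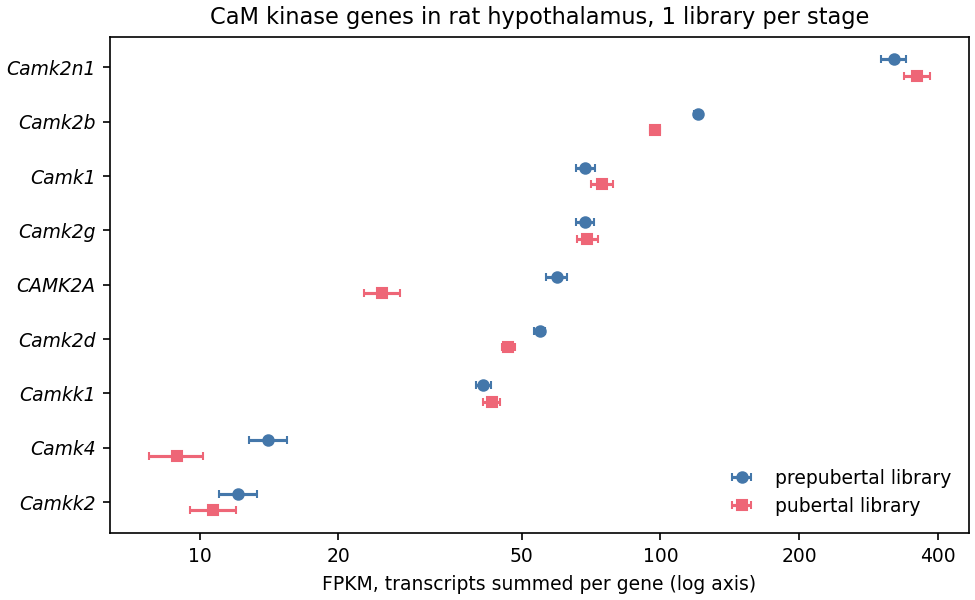
FPKM of the 9 members on a log axis, in the prepubertal (blue circles) and pubertal (red squares) library, with exact 95% counting intervals as bars and 1 library per stage. Camk2a lies at 59.6 and 24.8 FPKM and Camk4 at 14.1 and 8.91 FPKM, while the other members lie closer together.

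Within a library, the make-up of CaMKII can be read without any scaling between the libraries. The FPKM of the 4 subunit genes summed to 304 before puberty and 238 at puberty. Camk2a made up 19.6% of this sum (18.8% to 20.5%) in the prepubertal and 10.4% (9.58% to 11.3%) in the pubertal library. Its ratio to Camk2b went from 0.493 to 0.255. The share of Camk2g was 22.6% (21.7% to 23.4%) and then 29.1% (28.0% to 30.3%). Camk2b made up 39.8% and 40.8%, and Camk2d 18.0% and 19.6%, so these shares differed less. When the strongest transcript of each gene was taken alone, Camk2a made up 23.3% and 12.5%.

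**Figure D2:**
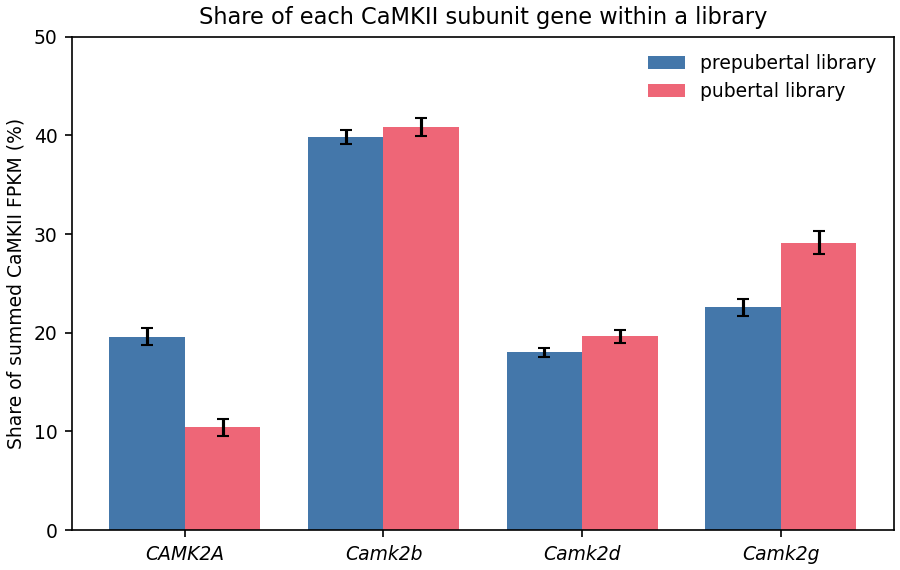
Share of each subunit gene in the summed CaMKII FPKM (percent), prepubertal in blue and pubertal in red, with 95% counting intervals as bars. The Camk2a share goes from 19.6% to 10.4% and the Camk2g share from 22.6% to 29.1%.

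The transcripts of the other subunit genes did not all go the same way. Camk2b was carried by ENSRNOT00000045935, which held 95.7% of its FPKM before and 95.4% at puberty. Of the 4 Camk2d transcripts, ENSRNOT00000016026 was the strongest, at 40.3 and 35.9 FPKM (73.8% and 76.7% of the gene). The Camk2d transcript ENSRNOT00000065307 was higher at puberty, but at 0.131 and 0.436 FPKM it rested on about 12 and 31 fragments. In Camk2g, ENSRNOT00000067162 went from 39.6 to 44.5 FPKM and its share of the gene from 57.8% to 64.1%. In contrast, ENSRNOT00000066163 of the same gene went from 26.8 to 22.2 FPKM and from 39.1% to 32.0%. The near-equal sums of Camk2g thus held transcripts that went in opposite directions. These transcripts differ by at most 96 nt in length, and how fragments shared by transcripts were divided rests on the authors' estimate. Camk2a has 1 transcript in the table, ENSRNOT00000041533, with a listed length of 1458 nt, so its isoforms were not analysed here.

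RefSeq promoter windows of the rat assembly GRCr8, 250 bases before to 50 bases after a gene's start, were found for 7 of the 9 members. Camkk2 and Camk2n1 had no entry. The windows were searched on both strands, overlaps allowed, for the GC box GGGCGG, the CREB site TGACGTCA, its core TGACG and the TATA box TATAAA. The CaMKII subunit genes differed here. The GC box was found 6 times in Camk2b, 3 times in Camk2d, 9 times in Camk2g and 4 times in Camkk1, and was not in the windows of Camk2a, Camk1 and Camk4. Of all 33469 promoter windows, 33.1% hold it. The windows of Camk2b, Camk2d and Camk2g are shown, with the GC boxes in capitals, since they share this feature that the Camk2a window lacks. Camk2b lies at chr14:85147895-85148194 on the minus strand, Camk2d at chr2:217698301-217698600 and Camk2g at chr15:3553106-3553405, both on the plus strand.
Camk2b: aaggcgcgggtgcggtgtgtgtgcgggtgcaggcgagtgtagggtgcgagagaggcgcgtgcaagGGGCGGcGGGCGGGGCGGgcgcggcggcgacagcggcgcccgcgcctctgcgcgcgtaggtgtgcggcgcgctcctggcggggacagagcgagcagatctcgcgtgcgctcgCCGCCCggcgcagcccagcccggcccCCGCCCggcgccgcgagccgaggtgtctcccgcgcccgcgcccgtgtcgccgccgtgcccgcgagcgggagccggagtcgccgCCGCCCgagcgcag
Camk2d: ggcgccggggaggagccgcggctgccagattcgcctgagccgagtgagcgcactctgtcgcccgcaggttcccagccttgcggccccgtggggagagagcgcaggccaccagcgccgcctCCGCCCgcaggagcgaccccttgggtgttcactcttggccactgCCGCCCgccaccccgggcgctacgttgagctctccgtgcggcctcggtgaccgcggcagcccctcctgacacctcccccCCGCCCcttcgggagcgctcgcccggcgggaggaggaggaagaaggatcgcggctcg
Camk2g: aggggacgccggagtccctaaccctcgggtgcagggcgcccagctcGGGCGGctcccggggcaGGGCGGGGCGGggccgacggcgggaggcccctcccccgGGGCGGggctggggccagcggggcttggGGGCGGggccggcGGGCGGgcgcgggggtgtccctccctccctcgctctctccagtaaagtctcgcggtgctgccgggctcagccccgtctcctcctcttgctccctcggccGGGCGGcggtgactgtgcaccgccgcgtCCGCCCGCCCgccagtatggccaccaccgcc

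The G and C content was 81.3%, 74.7% and 80.0% in these windows and 78.7% in Camkk1. It was 61.3% in Camk2a, 60.0% in Camk1 and 45.7% in Camk4, beside a median of 51.7% over all windows. The core TGACG was found 2 times in Camk2a and once each in Camk1 and Camkk1, and 21.2% of all windows hold it. The full site TGACGTCA (1.83% of all windows) and TATAAA (14.2%) were found in 0 of the 7 windows. These are matches of letters and not measured sites.

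The inhibitor Camk2n1 was the most abundant member at each stage. It was at 321 FPKM (301 to 341) before puberty and at 360 FPKM (337 to 384) at puberty, 1.12-fold higher (1.03 to 1.23). Set against the sum of the CaMKII subunits, Camk2n1 went from 1.06 to 1.51 FPKM per FPKM of CaMKII. Its transcript model is only 409 nt long, so its FPKM rests on 1012 and 916 fragments. Camk2n2, the related inhibitor gene, which was not a member, was at 51.0 and 46.3 FPKM. Its model of 347 nt was too short for a fragment number, so whether it differed beyond counting error is not known.

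In the kinase cascade, Camk4 was the gene that differed most. It went from 14.1 FPKM (12.8 to 15.5) to 8.91 FPKM (7.77 to 10.2), 1.58-fold lower at puberty (1.34 to 1.87) and a log2 ratio of -0.61. It rested on 439 and 218 fragments, the fewest of any member at puberty. Camk1, another substrate of the upstream kinases, was at 68.8 and 74.7 FPKM, a ratio of 1.09 (1.01 to 1.17). Camk1 and Camk4 therefore went in opposite directions, and their ratio went from 4.88 to 8.38. The upstream kinases differed little, as Camkk1 went from 41.3 to 43.0 FPKM (a ratio of 1.04, 0.984 to 1.10) and Camkk2 from 12.1 to 10.7 FPKM (0.884, 0.762 to 1.03). Both intervals hold 1. In the RefSeq annotation Camk1 overlaps the DNA repair gene Ogg1 and Camkk2 overlaps the ATP receptor gene P2rx4 at their ends. The libraries kept the strand, and how far fragments of such ends were told apart was not tested.

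By level, the order before puberty was Camk2n1, Camk2b, Camk1, Camk2g, Camk2a, Camk2d, Camkk1, Camk4 and Camkk2. Camk1 and Camk2g, with intervals of 65.4 to 72.2 and 65.5 to 71.7 FPKM, could not be ranked within counting error. The same held for Camk4 and Camkk2, at 12.8 to 15.5 and 11.0 to 13.3 FPKM. At puberty Camk2a stood below Camk2d and Camkk1, and Camkk2 stood above Camk4, although their intervals of 9.53 to 11.98 and 7.77 to 10.2 FPKM overlapped. Those of Camk1 (70.8 to 78.8 FPKM) and Camk2g (65.9 to 73.1 FPKM) overlapped at puberty too. Camk2a thus moved from the fifth to the seventh place among the 9 genes.

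Over all members, 5 were lower and 4 higher at puberty, with a median log2 ratio of -0.16, whereas 7 were lower when the libraries were scaled to an equal sum of mRNA FPKM. The members that then crossed 0 were Camk2g, at -0.04, and Camkk1, which was then level at -0.00021. Counting intervals did not hold a ratio of 1 for 4 lower members (Camk2a, Camk4, Camk2b and Camk2d) and 2 higher ones (Camk2n1 and Camk1). Camk2n1 and Camk1, at log2 ratios of 0.17 and 0.12, were at 0.08 and 0.07 after a length correction. This correction subtracted the median of genes of similar length and was added after seeing the data. Of 7940 genes with a mean FPKM of at least 10 and a fragment number, 26.8% had an interval below 1 and 26.6% one above 1. To set these against the whole table, the 8158 genes with a mean FPKM of at least 10 were used, a level that all 9 members reach. Among these genes 47.1% were lower and 52.9% higher, and the median log2 ratio was 0.01. On FPKM + 1, 2 of the 9 members, Camk2a and Camk4, were lower by at least 20%, as were 7.78% of all these genes, and 0 members but 6.47% of the genes were higher by at least 25% (the same step on the log scale). With an equal sum of mRNA FPKM, 3 members were lower by at least 20%, the third being Camk2b at -0.37. Camk2a was the member that was at least 2-fold lower, beside 0.208% of the genes, and 0 members were at least 2-fold higher, beside 0.282%. Since Camk2a was chosen for this difference, nothing can be read from these shares about the family. Of the 8158 genes, 10 had a larger decrease than Camk2a and 102 a larger one than Camk4. Among the 6834 of them with a transcript length of at least 1000 nt, 1 had a larger decrease than Camk2a, the unnamed model AABR06024097.1. The ranks of Camk2a are a description too, since it was chosen for its decrease.

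**Figure D3:**
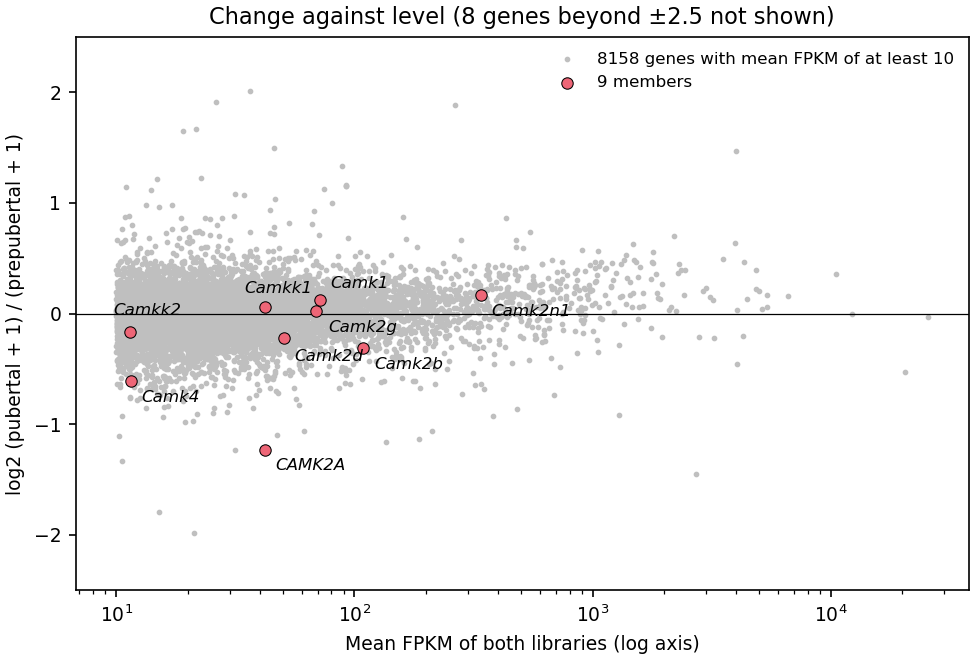
Log2 ratio of (FPKM + 1), pubertal over prepubertal, against the mean FPKM of both libraries (log axis) for 8158 genes (grey) and the 9 members (red), with 8 genes beyond ±2.5 left out. Camk2a, at -1.23, lies below nearly all genes of its level, Camk4 lies at -0.61, and the other members lie within the cloud.

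The genes whose ratio was closest to that of Camk2a were sought among 8194 genes with a prepubertal FPKM of at least 10. The 5 closest were LOC102556916 (-1.24), ENSRNOG00000042665 (-1.16), Gng12 (-1.13), Ranbp3l (-1.33) and Ldoc1l (-1.11), against -1.23 for Camk2a. This likeness rests on 2 libraries only and on the value for which Camk2a was chosen, so it is a description. The filter used the library in which Camk2a was higher. Ranbp3l and Ldoc1l, at 5.55 and 5.77 FPKM at puberty, passed it through the prepubertal library only. The weighted transcript length of these genes was between 192 and 847 nt, shorter than that of Camk2a. LOC102556916, ENSRNOG00000042665 and Gng12, at 252, 192 and 219 nt, were shorter than the mean fragments of 258 and 253 nt. They were given no fragment number, so the counting error of their ratios is not known.

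The other genes of the pathway came from lists chosen with earlier results of these data known. Of 17 further genes related to the CaM kinases, 16 of the kinase superfamily and the inhibitor gene Camk2n2, 13 were lower and 4 higher, with a median log2 ratio of -0.14. Of the 17764 genes above 0, 50.9% were lower and 49.1% higher. At least 20% lower were 4 of the 17 genes and 10.1% of the 17764, and at least 25% higher were 0 of the 17 and 7.55% of the 17764. Mylk, the smooth muscle myosin light chain kinase, went from 5.22 to 3.31 FPKM (log2 ratio -0.53) and Dclk1, a kinase of the microtubules, from 51.3 to 39.5 FPKM (-0.37). Dapk1, which acts in cell death, went from 13.0 to 10.2 FPKM (-0.33) and Camk1d, the delta form of CaMKI, from 8.49 to 6.57 FPKM (-0.33). Camk1g, from 21.4 to 21.7 FPKM, and Camkv, from 82.7 to 79.6 FPKM, differed little.

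Calmodulin itself was abundant. Calm2 was at 2085 FPKM before and 2171 FPKM at puberty (0.06), and Calm3 is listed at 0 in both libraries. Calm2 is the sum of gene models of that name, and calmodulin genes encode the same protein, so fragments may have been divided between copies. Among genes that hold calmodulin at low calcium, Nrgn, which encodes neurogranin of forebrain neurons, went from 19.3 to 12.6 FPKM (-0.57). Gap43, of growing axons, went from 505 to 622 FPKM (0.30), and Pcp4 from 3011 to 2597 FPKM (-0.21).

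Calcineurin, the phosphatase that calmodulin activates beside the CaM kinases, was uneven. Its most abundant catalytic subunit gene, Ppp3ca, differed little, from 147 to 134 FPKM (-0.14). Its regulatory subunit Ppp3r1 went from 129.6 to 85.9 FPKM (-0.59), its other catalytic subunits Ppp3cb from 71.9 to 54.3 FPKM (-0.40) and Ppp3cc from 10.7 to 15.0 FPKM (0.44). The calcium-activated adenylyl cyclase Adcy1 went from 31.9 to 23.2 FPKM (-0.44). Over the list of 13 calmodulin effectors, which includes the calcineurin genes and Adcy1, 7 were lower and 6 higher, with a median near 0. Of the 6 phosphatase genes that act on CaM kinases, 4 were lower and 2 higher (median -0.14). Ppm1e, which removes the activating phosphate from CaM kinases, went from 69.3 to 48.5 FPKM (-0.51), and Ppm1f, a phosphatase of the same kind, from 30.9 to 33.9 FPKM (0.13).

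The 16 genes for partners and substrates of CaMKII at the excitatory postsynapse had lower values at puberty without exception, at log2 ratios from -0.60 to -0.10 and a median of -0.32. Of them, 8 were lower by at least 20%, beside 10.1% of the genes above 0. Kalrn, a guanine nucleotide exchange factor of dendritic spines, went from 21.8 to 13.97 FPKM (-0.60). The scaffold gene Shank2 went from 4.94 to 3.08 FPKM (-0.54). Grin1, the obligatory NMDA receptor subunit, went from 54.96 to 37.6 FPKM (-0.54), and Grin2b, whose tail binds CaMKII, from 31.7 to 24.5 FPKM (-0.36). The scaffold Dlg4 (PSD-95) differed least, from 101 to 94.3 FPKM (-0.10). Transcript length went with this result. The median transcript length of the 16 genes was 4229 nt, and of 735 genes of 4000 to under 6000 nt with a mean FPKM of at least 10, 69.7% were lower, with a median log2 ratio of -0.08. In the class of 1000 to under 2000 nt, which holds Camk2a and Camk4, 38.9% of 2910 genes were lower and the median was 0.05. General neuron genes (7 of 8), thalamic (8 of 9), striatal (7 of 9) and telencephalic markers (6 of 9) were mostly lower as well. When the median log2 ratio of genes of similar length was subtracted, a step added after seeing the data, all 16 postsynaptic genes were lower. How much of their values went with length or with the cell types of these markers was not tested.

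Of 12 CaMKII substrates elsewhere in the cell, 8 were lower and 4 higher (median -0.14). Syn1, which tethers synaptic vesicles, went from 31.7 to 24.8 FPKM (-0.34) and the calcium channel gene Cacna1c from 11.2 to 8.52 FPKM (-0.36). Th, the rate-limiting enzyme of dopamine synthesis, went from 16.4 to 30.7 FPKM (0.86). Pln, which regulates the calcium pump of the heart, was at 1.21 and 1.76 FPKM (0.32), with a counting interval of the ratio from 0.421 to 5.26. Downstream of CaMKIV, 6 of 11 genes were lower and 5 higher (median -0.09). Creb1 was at 18.9 and 19.1 FPKM (0.02). Its coactivator gene Crtc1 went from 5.47 to 3.16 FPKM (-0.64), the MEF2 factors Mef2a and Mef2c from 33.6 to 25.3 FPKM and from 23.6 to 17.7 FPKM (-0.39 each), and the CREB relative Crem from 22.4 to 28.7 FPKM (0.34). Of 4 genes listed beside the upstream kinases, 3 were higher (Prkaa1, Prkaa2 and Akt1) and Stk11 was lower, from 40.3 to 33.2 FPKM (-0.27). Stk11 encodes another upstream kinase of AMPK and is not a target of Camkk1 and Camkk2. The AMPK catalytic subunit genes Prkaa1 and Prkaa2 were at 16.1 and 18.0 FPKM and at 6.65 and 6.96 FPKM.

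**Figure D4:**
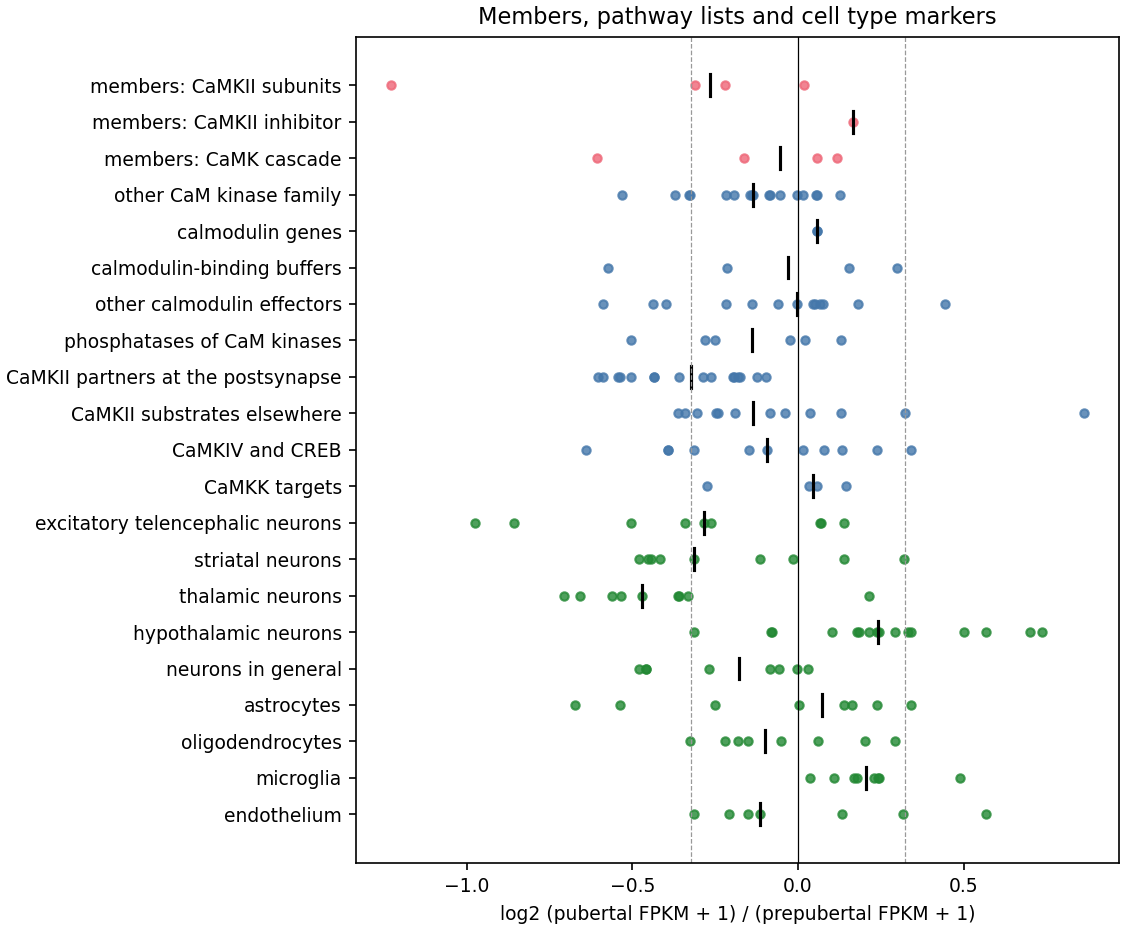
Log2 ratio of (FPKM + 1), pubertal over prepubertal, of each gene (points) and the list median (black bars) for the members (red), pathway lists (blue) and cell type marker lists (green), with dashed lines at 20% lower and 25% higher. All 16 postsynaptic partners lie below 0, 8 of 9 thalamic markers lie below 0, and 13 of 16 hypothalamic markers lie above 0.

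Camk2a is expressed most in neurons of the forebrain outside the hypothalamus, so marker genes of neighbouring tissue are given beside it. Of 9 markers of excitatory telencephalic neurons in the table (Neurod2 was not analysed here), 6 were lower at puberty and 3 higher, 4 were lower by at least 20%, beside 10.1% of the genes above 0, and the summed level was 59.0 and 40.0 FPKM. None was at 0. Slc17a7, the vesicular glutamate transporter of cortex, hippocampus and some thalamic nuclei, went from 26.2 to 12.8 FPKM (-0.98), with a counting interval of the ratio from 0.443 to 0.541. Neurod6, a transcription factor of cortical and hippocampal neurons, went from 5.08 to 2.36 FPKM (-0.86). The cortical markers Tbr1 and Emx1 were at or below 0.515 FPKM in both libraries. The ratio of Camk2a to Slc17a7 was 2.28 before and 1.94 at puberty, a 1.17-fold difference, against 2.40-fold for Camk2a itself.

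Of 9 thalamic markers, 8 were lower and 1 higher (Calb2), with a median of -0.47, and the 8 were lower by at least 20%, beside the same 10.1%. Whether the hypothalamus itself expresses these markers, Calb2 included, was not tested. Their summed level was 522 and 524 FPKM, most of it Calb2. Gbx2 went from 4.29 to 2.24 FPKM (-0.71) and Tcf7l2 from 19.9 to 12.2 FPKM (-0.66). Of 9 striatal markers, 7 were lower, 4 of them by at least 20%, and 2 higher (median -0.31), with summed levels of 83.0 and 76.9 FPKM. Of 16 hypothalamic genes, 13 were higher and 3 lower (median 0.24), with sums of 2734 and 4155 FPKM. Among the 16 hypothalamic genes, Pmch went from 1675 to 2723 FPKM (0.70), Oxt from 411 to 686 FPKM (0.74) and Pomc from 45.8 to 68.3 FPKM (0.57). Pmch and Oxt made up most of the difference between the sums. The 3 lower genes were Avp (-0.08), Nkx2-1 (-0.08) and Otp (-0.31), and none of the 16 was at 0. What part the neighbouring tissue had in the values of Camk2a was not tested, and in bulk RNA fewer cells that express a gene and less RNA per cell cannot be told apart.

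Medians of the other cell types lay closer to 0. Genes found in most neurons had a median log2 ratio of -0.18 (7 of 8 lower), with summed levels of 2081 and 1912 FPKM, and 3 of the 8 were lower by at least 20%, beside 10.1% of the genes above 0. These were Rbfox3 (-0.48), Stmn2 (-0.46) and Nefm (-0.46), while Snap25 was at 654 and 628 FPKM (-0.06). Medians were 0.07 for astrocyte genes (3 of 8 lower, sums of 3016 and 3129 FPKM), -0.10 for oligodendrocyte genes (5 of 8 lower, 11921 and 12905 FPKM), 0.20 for microglial genes (0 of 8 lower, 255 and 302 FPKM) and -0.11 for endothelial genes (4 of 7 lower, 148 and 157 FPKM). The lowest ratio in these lists was that of Gja1, at -0.67.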

How the data were processed

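Total RNA of the hypothalamus was depleted of ribosomal RNA and sequenced as strand-specific paired ends. The authors aligned reads with TopHat, assembled transcripts and estimated FPKM per transcript with Cuffdiff 2.1.1 (per the labels, which name Rnor_5.0, whereas the methods link the annotation of a later build). How the 3 rats of a stage were combined is not given in the sources used here. In the deposited FPKM, 95.6% and 95.5% of 2222 and 2420 single-transcript genes of at least 1000 nt with up to 30 fragments were whole multiples of 1 step, within 0.1, at mean fragment lengths of 258 and 253 nt. Deposited columns of fold changes, p-values and q-values were not used, nor were lncRNAs. FPKM were summed per gene name, and log2 ratios used a pseudocount of 1. Gene names came from the comparison table. Members, lists and rules were chosen with earlier results of these data known. Named in the lists were the genes lower by 20% or higher by 25% or more at 1 FPKM or more, at most 4 a list, and others singled out after their values were seen. Some genes of the lists are not reported by name here. No test was made and no p-value is given, as there is 1 library per stage. The steps were tested on simulated data. Alternatives were a pseudocount of 0.1, other scalings, the strongest transcript, a filter on FPKM, the FPKM of the comparison table and a length correction added after seeing the data. Scripts ran in Python 3.11.15 with scipy 1.17.1 for intervals, pandas 2.3.3 and numpy 2.4.6 for tables and matplotlib 3.10.9 for plots.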

Additional observations from a re-analysis of the deposited data

How the results depend on the processing

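The log2 ratio of Camk2a ranged from -1.29 (libraries scaled to an equal sum of mRNA FPKM, a factor of 0.960 on the pubertal library) to -1.22 (scaled to a median ratio of 1) over all alternatives, and the length correction, added after seeing the data, gave -1.27. The Camk2a share of CaMKII moved to 23.3% before and 12.5% at puberty with the strongest transcript alone. The number of members lower ranged from 5 to 7 over these settings, while all 16 postsynaptic partners were lower in each. With an equal sum, 2 of the 4 genes listed beside the upstream kinases and 1 of the 8 microglial genes were lower. With the length correction, Camk2b was at -0.24, Camk2d at -0.09, Camk2n1 at 0.08 and Camk1 at 0.07. No paired analysis was possible because each stage has 1 library and the labels carry no replicate numbers. The FPKM of 13 transcripts differed between the tables, of which 0 belong to members. With 1 library per stage there is no spread between rats, and the counting intervals leave it out. Transcripts under 380 nt were given no fragment number.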
